A study of Oryza sativa with 6 samples.

Results

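The rice seedling loci described here are annotated with making fatty acids, lengthening them into wax and cuticle precursors, moving acyl groups or carrying lipids. They are part of that machinery, and some are not lipid enzymes. A locus was a member if its annotation held the Gene Ontology term for fatty acid biosynthesis, lipid transport or acyl transfer, or if its protein name held 3-ketoacyl-CoA synthase or lipid-transfer. Loci annotated to the chloroplast or thylakoid were left out, as were those named as lipoxygenases, allene oxide enzymes, peroxygenases or transporters. This gave 83 members of the 6921 loci in either table of the study, namely 11 of very-long-chain elongation, 18 of fatty acid synthesis and desaturation, 39 of acyl transfer and 15 of lipid transfer. Annotation alone made the choice among listed loci, but a locus was listed only at an unadjusted p of at most 0.05 in a comparison. All 83 members had therefore already passed that filter. The rule itself was chosen with earlier results of these data known. A protein name other than uncharacterized stood beside 24 members, and the other 59 are known here by their Gene Ontology terms alone.

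RNA was taken from 5-week-old seedlings of Pusa Basmati 1, an indica rice cultivar. The 6 libraries were 2 of plants labelled OsRDR3 knock-down (KD), 2 of OsRDR3 over-expression (OE) plants and 2 of wild type. OsRDR3 is an RNA-dependent RNA polymerase, an enzyme that copies RNA into double-stranded RNA. The labels do not give the promoter, the knock-down construct, the number of independent lines or whether replicates came from separate plants. Each transgenic group was compared with wild type in its own table, with 1 pooled FPKM value (fragments scaled by transcript length and library size) per group and locus. The spread between the 2 libraries of a group and the sequencing depth are therefore unknown, and each level below is the authors' pooled value with no error of its own. In whole seedlings, fewer cells of a type and less RNA per cell cannot be told apart.

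Both tables list loci with an unadjusted p of at most 0.05, 4341 for the libraries labelled KD and 4295 for over-expression, and other loci are not analysed here. A locus was called higher or lower at the authors' q under 0.05. The RNA-dependent RNA polymerase locus BGIOSGA002194, which the tables do not pair with the name OsRDR3, stood at 69.5 FPKM in the libraries labelled KD against 0.190 FPKM in wild type. In over-expression it stood at 58.7 FPKM against 0.198 FPKM in wild type, and the authors' deposited tables call it higher in both (q = 0.000868 for the libraries labelled KD and 0.00105 for over-expression). Another locus named RNA-dependent RNA polymerase, BGIOSGA009008, was also called higher in the libraries labelled KD. Its log2 fold change there was 0.796 (q = 0.000868 in the authors' deposited table), and the over-expression table does not list it. If either locus is the targeted gene, its rise goes against the knock-down label. Directions below are therefore given for the libraries labelled KD, and whether the polymerase was lost in them was not tested. Leaf transcripts also moved. The 21 listed chlorophyll a-b binding and small Rubisco subunit loci summed to 7656 FPKM in the libraries labelled KD against 24560 FPKM in wild type, with 18 called lower and 0 higher. The 14 listed in over-expression summed to 6946 FPKM against 11602 FPKM in wild type, with 4 called lower and 1 higher. Among all listed loci, 36.7% were called lower and 17.6% higher in the libraries labelled KD, and 13.6% lower and 37.9% higher in over-expression. The sums cover listed loci only, not the same set in each comparison, and are not totals of leaf transcripts. Of the root list, NAS1 and NAS2 were listed in the libraries labelled KD with 1 called higher, and 0 were listed in over-expression. Floral and seed markers had 0 listed loci in both. The part of tissue makeup in the results below was not tested.

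Plants build fatty acids in the plastid, release them with thioesterases and activate them as coenzyme A esters. In the endoplasmic reticulum, 3-ketoacyl-CoA synthases perform the first, rate-limiting step of each round of elongation to very-long-chain fatty acids, the precursors of cuticular wax, suberin and the acyl chains of sphingolipids. Non-specific lipid-transfer proteins are small secreted proteins that bind lipids in a hydrophobic cavity, and they have been linked to cuticle formation and to defence in plants.

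In over-expression, most listed members were called higher than in wild type, and 5 named 3-ketoacyl-CoA synthases were among them. In the libraries labelled KD, members of elongation and fatty acid synthesis had 8 calls higher and 1 lower, and members of acyl transfer and lipid transfer had 4 higher and 18 lower. That difference between classes was not tested. Of the 56 members listed in over-expression, 33 were called higher (58.9%) and 2 lower (3.57%), and 21 were not called. Among all listed loci of that table, 37.9% were called higher and 13.6% lower. The median log2 fold change was 1.26 over the listed members and 0.67 over all listed loci. Of the 54 members listed in the libraries labelled KD, 12 were called higher (22.2%), 19 lower (35.2%) and 23 were not called. These shares are near the background of that table, where 17.6% of all listed loci were called higher and 36.7% lower. The median log2 fold change there was -0.47 over the listed members and -0.58 over all listed loci, so that it was 0.11 after centring on all listed loci. Since a locus was listed only at p of at most 0.05, listed members had already differed, and these shares and medians describe the listed members and not all 83.

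**Figure D1:**
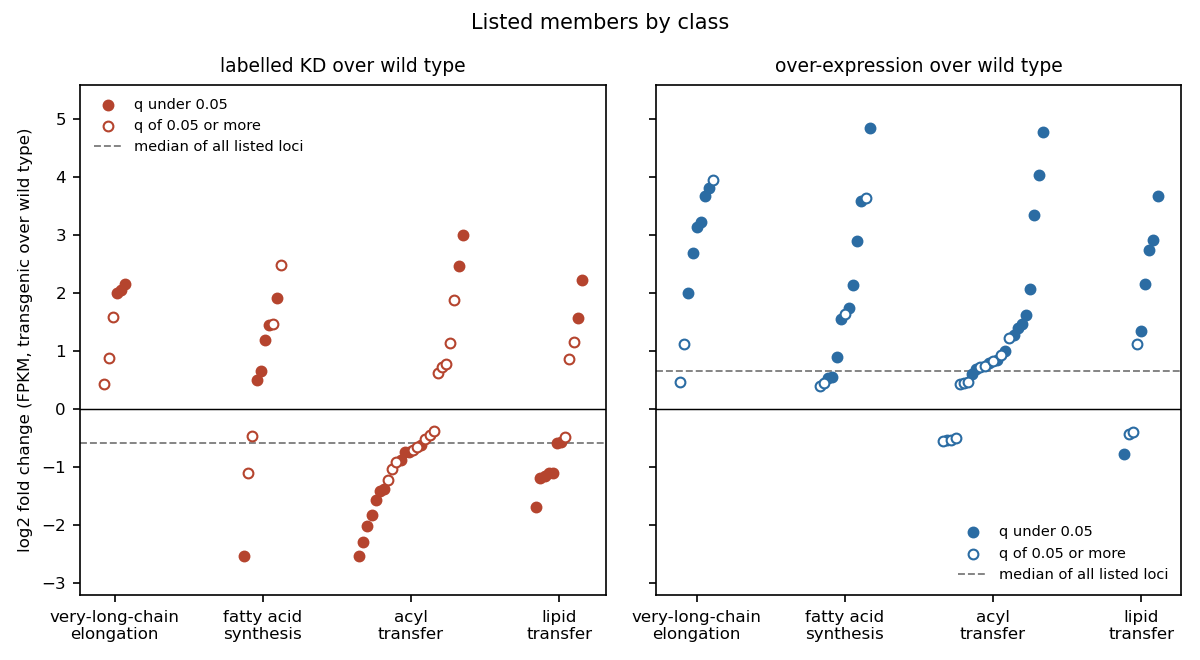
Each point is a listed member, placed by class and by its log2 fold change of FPKM, transgenic over wild type, for the libraries labelled KD on the left and over-expression on the right; filled points have q under 0.05 and the dashed line is the median of all listed loci (-0.58 for the libraries labelled KD and 0.67 for over-expression). All 9 listed elongation members lie above 0 in over-expression, and the 6 listed in the libraries labelled KD also lie above 0, whereas acyl transfer there reaches from a log2 fold change of -2.53 to an 8.01-fold rise.

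Very-long-chain elongation was the class with the highest median in both comparisons. In over-expression, 6 of its 9 listed members were called higher (66.7%) and 0 lower, with a median log2 fold change of 3.15. Among all listed loci there, 37.9% were called higher and 13.6% lower. In the libraries labelled KD, 3 of 6 were called higher (50.0%) and 0 lower, with a median of 1.80. All listed loci of that comparison had 17.6% called higher and 36.7% lower. Wild-type levels were mostly low, with a median wild-type level of 0.819 FPKM in the over-expression table and 1.04 FPKM in the table of libraries labelled KD. The class takes in 2 loci with fatty acid alpha-hydroxylation terms. For the named 3-ketoacyl-CoA synthases alone, the median log2 fold change was 2.69 in over-expression, with 5 of 7 called higher. In the libraries labelled KD it was 2.01, with 3 of 5 called higher.

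The class holds 9 loci named 3-ketoacyl-CoA synthase. BGIOSGA023202, on chromosome 6 from 24473066 to 24474626 (the sources used here do not give the genome build), stood at 5.73 FPKM in the libraries labelled KD against 1.29 FPKM in wild type. In over-expression it stood at 11.9 FPKM against 1.34 FPKM in wild type, an 8.86-fold difference. BGIOSGA033118, on chromosome 10 from 16330060 to 16334579, stood at 6.30 FPKM in the libraries labelled KD against 1.56 FPKM in wild type, and 6.53 FPKM in over-expression against 1.63 FPKM in wild type. Both synthases are called higher in both of the authors' deposited tables, at q = 0.000868 in the libraries labelled KD and q = 0.00105 in over-expression, the lowest q each table holds.

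The largest rise of a named synthase in over-expression was that of BGIOSGA003684 on chromosome 1, with 7.05 FPKM against 0.501 FPKM in wild type, 14.1-fold. BGIOSGA029906 on chromosome 9 stood at 5.29 FPKM in over-expression against 0.563 FPKM in wild type, and BGIOSGA021501 on chromosome 6 at 6.96 FPKM against 1.08 FPKM. These 3 have q = 0.00105 in the authors' deposited over-expression table, and the table of libraries labelled KD does not list them. BGIOSGA009273 on chromosome 2 was listed in the libraries labelled KD alone, at 3.27 FPKM against 0.786 FPKM in wild type, and the authors' deposited table gives it q = 0.00160.

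The remaining 3 named synthases were not called. BGIOSGA011985 was the most abundant synthase of the class, with 65.1 FPKM in over-expression against 47.0 FPKM in wild type, a log2 fold change of 0.47. Its terms include cuticle development and epidermal cell differentiation, and its q in the authors' deposited table was 0.0717. BGIOSGA018233 stood at 14.1 FPKM in the libraries labelled KD against 10.4 FPKM in wild type. BGIOSGA006907 had 1.20 FPKM in the libraries labelled KD against 0.649 FPKM in wild type, and 1.47 FPKM in over-expression against 0.677 FPKM in wild type. The called synthases all had a wild-type level under 2 FPKM, as had the uncalled BGIOSGA006907, and the 2 synthases above 10 FPKM differed by log2 values of 0.44 and 0.47. Centring on the median of all listed loci, which subtracts 0.67 in over-expression, left every called elongation member higher and turned BGIOSGA011985 to -0.20.

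The class also holds a pair of loci whose terms describe the alpha-hydroxylation of fatty acids, a step that modifies the very long acyl chains of plant sphingolipids. BGIOSGA013665 on chromosome 3 stood at 10.5 FPKM in over-expression against 0.819 FPKM in wild type and was called higher, and at 2.37 FPKM in the libraries labelled KD against 0.786 FPKM in wild type, where it was not called. The authors' deposited tables give q = 0.00273 for over-expression and 0.109 for the libraries labelled KD. BGIOSGA037844 on chromosome 12 had the largest fold of the class, 5.62 FPKM in over-expression against 0.362 FPKM in wild type, yet its q in the authors' deposited table was 0.0739 and it was not called.

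**Figure D2:**
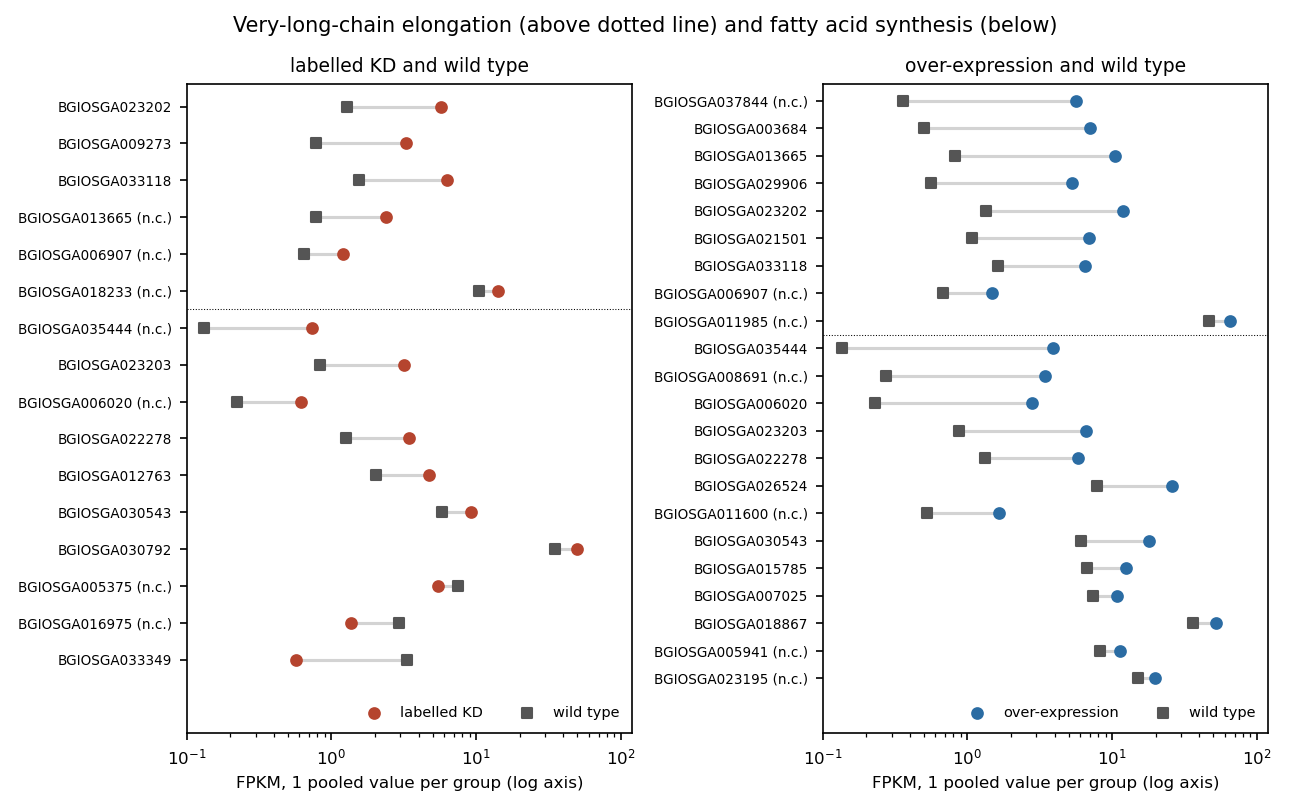
The authors' pooled FPKM (log axis) of each listed elongation member, above the dotted line, and fatty acid synthesis member, below it, with the libraries labelled KD on the left and over-expression on the right (circles) beside wild type (squares); n.c. marks loci with q of 0.05 or more. Most loci that lie far right of their wild-type square start near or below 1 FPKM, and the abundant synthase BGIOSGA011985 was not called, at 65.1 FPKM in over-expression against 47.0 FPKM in wild type.

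In fatty acid synthesis and desaturation, 9 of 13 listed members were called higher (69.2%) and 0 lower in over-expression. The median log2 fold change there was 1.64. Of all listed loci in over-expression, 37.9% were called higher and 13.6% lower. In the libraries labelled KD 5 of 10 were called higher (50.0%) and 1 lower, with a median of 0.93. All listed loci of that comparison had 17.6% called higher and 36.7% lower. The counts of this class were not tested against other loci. The members named acyl-acyl carrier protein thioesterase end fatty acid synthesis by releasing the finished chain. One of them, BGIOSGA022278 on chromosome 6, stood at 3.45 FPKM in the libraries labelled KD against 1.27 FPKM in wild type, and at 5.81 FPKM in over-expression against 1.32 FPKM in wild type. It was called higher in both of the authors' deposited tables (q = 0.00465 for the libraries labelled KD and 0.00105 for over-expression). The other 2 thioesterases, BGIOSGA005941 and BGIOSGA023195, were not called in over-expression, with log2 fold changes of 0.45 and 0.41.

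Long-chain acyl-CoA ligases activate free fatty acids, and the 2 loci of this class annotated with that activity carry wax and cutin terms. BGIOSGA035444 on chromosome 11 stood at 3.93 FPKM in over-expression against 0.137 FPKM in wild type, 28.7-fold, and at 0.733 FPKM in the libraries labelled KD against 0.131 FPKM in wild type. It was called in over-expression only, with q = 0.0235 against 0.0759 for the libraries labelled KD in the authors' deposited tables. With a wild-type level this near 0, its fold is uncertain, and the difference between the comparisons was not tested. BGIOSGA018867 on chromosome 5 was abundant and differed less, at 52.2 FPKM in over-expression against 35.9 FPKM in wild type (q = 0.0345 in the authors' deposited table), and centring turned its log2 fold change to -0.13.

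The 3 loci with wax or alkane terms are placed by these terms alone, since all are uncharacterized by protein name. Alkane formation turns very-long-chain products into surface hydrocarbons. BGIOSGA006020 on chromosome 2, whose terms include aldehyde decarbonylase activity, stood at 2.78 FPKM in over-expression against 0.231 FPKM in wild type, and at 0.613 FPKM in the libraries labelled KD against 0.221 FPKM in wild type. BGIOSGA007025, also on chromosome 2, stood at 10.8 FPKM in over-expression against 7.34 FPKM in wild type, which centring turned to a log2 value of -0.11. BGIOSGA030792 on chromosome 9 stood at 49.8 FPKM in the libraries labelled KD against 35.3 FPKM in wild type. In the authors' deposited tables the over-expression q-values are 0.00105 for BGIOSGA006020 and 0.0432 for BGIOSGA007025. For the libraries labelled KD the q is 0.0301 for BGIOSGA030792, and BGIOSGA006020 was not called there (q = 0.152).

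The sphingolipid branch is represented by BGIOSGA030543 on chromosome 9, annotated with sphingolipid delta-8 desaturase activity, which puts a double bond into the long-chain base. It stood at 9.25 FPKM in the libraries labelled KD against 5.85 FPKM in wild type, and at 18.1 FPKM in over-expression against 6.10 FPKM in wild type. The authors' deposited tables call it higher in both, with q = 0.0216 for the libraries labelled KD and 0.00105 for over-expression. BGIOSGA008691, with a sphingolipid biosynthesis term, had 3.45 FPKM in over-expression against 0.275 FPKM in wild type and was not called (q = 0.0570 in the authors' deposited table).

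Another 3 loci without a protein name share with the named synthases the combination of a fatty acid biosynthesis and an acyl transfer term. BGIOSGA023203 lies 13.0 kb from the synthase BGIOSGA023202 on chromosome 6, start to start. It stood at 3.16 FPKM in the libraries labelled KD against 0.841 FPKM in wild type, and at 6.58 FPKM in over-expression against 0.875 FPKM in wild type, which is 3.76-fold and 7.51-fold. The folds of its neighbour were 4.45 and 8.86. BGIOSGA012763 stood at 4.71 FPKM in the libraries labelled KD against 2.05 FPKM in wild type, and BGIOSGA015785 at 12.6 FPKM in over-expression against 6.70 FPKM in wild type. All of these differences have q under 0.05 in the authors' deposited tables. BGIOSGA026524, annotated as binding phosphopantetheine, the arm that carries the growing chain, rose to 26.1 FPKM in over-expression, against 7.80 FPKM in wild type.

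The called fall of this class was BGIOSGA033349 on chromosome 10, which also carries a xanthophyll term. It stood at 0.574 FPKM in the libraries labelled KD against 3.31 FPKM in wild type, with q = 0.0155 in the authors' deposited table. BGIOSGA016975, with the same kind of term, and BGIOSGA005375 had log2 fold changes of -1.10 and -0.46 there and were not called. BGIOSGA011600, annotated with the methylsterol oxidase activity of sterol synthesis, had a log2 fold change of 1.64 in over-expression and was not called.

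Lipid-transfer loci were the most abundant members, and neighbouring copies moved in opposite directions. Of the 12 listed in the libraries labelled KD, 2 were called higher (16.7%) and 7 lower (58.3%), with a median log2 fold change of -0.57. Among all listed loci there, 17.6% were called higher and 36.7% lower. Of the 9 listed in over-expression, 5 were called higher (55.6%) and 1 lower (11.1%), with a median of 1.36. All listed loci of that comparison had 37.9% called higher and 13.6% lower. The higher share in the libraries labelled KD and the lower share in over-expression are thus near those of all listed loci. Most named lipid-transfer members lie in a pair of arrays, 4 loci within 48.3 kb on chromosome 11 and 4 within 54.6 kb on chromosome 12.

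At the start of each array lies a locus named non-specific lipid-transfer protein 3, and both rose in both comparisons. BGIOSGA034680, on chromosome 11 from 369105 to 369571, stood at 79.8 FPKM in the libraries labelled KD against 17.0 FPKM in wild type, and at 134 FPKM in over-expression against 17.7 FPKM in wild type. BGIOSGA036880, on chromosome 12 from 906672 to 907138, stood at 38.04 FPKM in the libraries labelled KD against 12.7 FPKM in wild type, and at 88.8 FPKM in over-expression against 13.2 FPKM in wild type. The authors' deposited tables give both the lowest q, 0.000868 in the libraries labelled KD and 0.00105 in over-expression. The annotation gives both loci the same pair of gene names, LTP110-A and LTP110-B. How the authors' counting divided reads between such like copies is not given in the sources used here, so the level of each copy alone is uncertain.

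Their neighbours were higher in wild type. On chromosome 11, BGIOSGA034686 stood at 147 FPKM in the libraries labelled KD against 314 FPKM in wild type, and BGIOSGA034687 at 121 FPKM against 179 FPKM in wild type. On chromosome 12, BGIOSGA036883 stood at 49.9 FPKM in the libraries labelled KD against 160 FPKM in wild type, and BGIOSGA036886 at 131 FPKM against 289 FPKM in wild type. These 4 were called lower, as was BGIOSGA036882, named lipid-transfer protein 1, with 225 FPKM in the libraries labelled KD against 336 FPKM in wild type. In the authors' deposited table their q-values run from 0.000868 to 0.0267. Centring on the median of all listed loci, which adds 0.58 to each log2 value, turned BGIOSGA034687 and BGIOSGA036882 to just above 0.

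In over-expression the called fall within the arrays was BGIOSGA034684 on chromosome 11, with 177 FPKM against 302 FPKM in wild type (q = 0.00105 in the authors' deposited table). In the libraries labelled KD it stood at 208 FPKM against 290 FPKM in wild type and was not called (q = 0.0520). BGIOSGA034686 and BGIOSGA036882 were not called in over-expression, at 250 FPKM against 327 FPKM and at 260 FPKM against 351 FPKM in wild type. Of the 10 members named as lipid-transfer proteins, therefore, the 6 array copies with the higher wild-type levels had log2 fold changes below 0 wherever they were listed, and the 2 array copies with the lower levels rose.

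**Figure D3:**
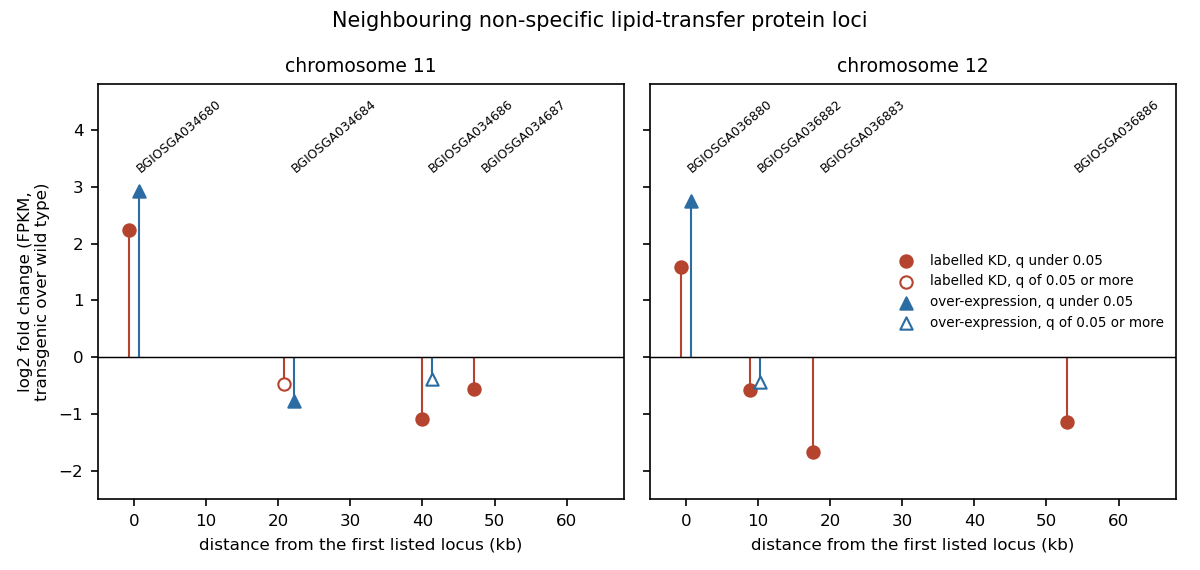
Log2 fold change of FPKM, transgenic over wild type, of the lipid-transfer loci in each array against the distance in kb from the first listed locus, for the libraries labelled KD (circles) and over-expression (triangles); open symbols have q of 0.05 or more. The first locus of each array lies above 0 in both comparisons (1.58 to 2.92), and the other 6 lie below 0 wherever listed.

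Away from the arrays, BGIOSGA020050 on chromosome 5 stood at 16.6 FPKM in the libraries labelled KD against 35.5 FPKM in wild type, and BGIOSGA000576 on chromosome 1 stood at 32.0 FPKM in over-expression against 7.17 FPKM in wild type. Both are named as non-specific lipid-transfer proteins and both were called. Among the 5 lipid transport loci without such a name, BGIOSGA025241 on chromosome 7 rose to 14.8 FPKM in over-expression, against 1.17 FPKM in wild type. BGIOSGA026587, annotated as membrane-anchored with cuticle development and fungal defence terms, rose to 26.2 FPKM in over-expression, against 10.2 FPKM in wild type. BGIOSGA027603 on chromosome 8, annotated with acyl-CoA binding and with cold and freezing terms, fell to 29.3 FPKM in the libraries labelled KD, against 66.3 FPKM in wild type. In the authors' deposited tables these 3 have q = 0.0159, 0.00105 and 0.0167. BGIOSGA011294 and BGIOSGA033859 were not called, with log2 fold changes of 0.87 to 1.16 in the comparisons that list them.

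Acyl transfer was the largest class. Of its 26 members listed in the libraries labelled KD, 2 were called higher (7.69%) and 11 lower (42.3%), beside 17.6% and 36.7% of all listed loci, with a median log2 fold change of -0.72. Of its 25 listed in over-expression, 13 were called higher (52.0%) and 1 lower, beside 37.9% and 13.6% of all listed loci, with a median of 0.83. The lower share in the libraries labelled KD is near that of all listed loci, and all listed loci were likewise called lower more than higher there and higher more than lower in over-expression. The difference between the comparisons was not tested, since both use the same wild-type libraries and single libraries are not in the tables. The acyl transfer term is broad, and most of these loci carry no protein name, so their substrates are unknown here. By name the class also holds chalcone synthase 1 (CHS1), the entry enzyme of flavonoid synthesis, and a histone acetyltransferase, which are not lipid enzymes.

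A pair of members of the class carries terms for the surface polymers cutin and suberin. BGIOSGA026477 on chromosome 8, with a cutin term, stood at 8.69 FPKM in over-expression against 0.318 FPKM in wild type, 27.3-fold, and at 1.12 FPKM in the libraries labelled KD against 0.305 FPKM in wild type. It was called in over-expression (q = 0.00105) and not in the libraries labelled KD (q = 0.0668) in the authors' deposited tables. BGIOSGA035318 on chromosome 11, with suberin and hydroxycinnamoyl transfer terms, stood at 4.30 FPKM in over-expression against 0.422 FPKM in wild type (q = 0.00192 in the authors' deposited table).

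BGIOSGA029102 on chromosome 8, without a protein name, had the largest rise of any member in the libraries labelled KD. It stood at 5.06 FPKM there against 0.631 FPKM in wild type, 8.01-fold, and at 10.9 FPKM in over-expression against 0.659 FPKM in wild type, 16.5-fold. It has the lowest q of both of the authors' deposited tables. BGIOSGA034526 on chromosome 11, with a plastoglobule term, was the other rise of the class in the libraries labelled KD, at 2.28 FPKM against 0.409 FPKM in wild type (q = 0.000868 in the authors' deposited table). Plastoglobules are lipid droplets of the plastid.

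The falls in the libraries labelled KD were led by unnamed loci. BGIOSGA024194 stood at 1.16 FPKM against 6.72 FPKM in wild type, BGIOSGA020552 at 2.09 FPKM against 10.2 FPKM, and BGIOSGA020944 at 2.46 FPKM against 9.88 FPKM. In over-expression these 3 stood at 4.79 FPKM against 7.01 FPKM in wild type, 7.52 FPKM against 10.6 FPKM, and 7.17 FPKM against 10.3 FPKM, and none of them was called. Their q in the authors' deposited tables was 0.000868 each in the libraries labelled KD and 0.0975 to 0.133 in over-expression. BGIOSGA040116, on a scaffold outside the chromosomes, stood at 3.49 FPKM in the libraries labelled KD against 12.4 FPKM in wild type. BGIOSGA025561, BGIOSGA004820, BGIOSGA019146 and BGIOSGA005345 were called lower there too, with log2 fold changes of -1.57, -1.41, -0.87 and -0.73. CHS1 (BGIOSGA033874) stood at 36.6 FPKM in the libraries labelled KD against 61.1 FPKM in wild type (q = 0.000868 in the authors' deposited table), while the histone acetyltransferase BGIOSGA023877 was not called.

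A pair of acyl transfer loci was called in both comparisons besides BGIOSGA029102. BGIOSGA018699 on chromosome 5 was lower in both, at 8.42 FPKM in the libraries labelled KD against 21.9 FPKM in wild type, and at 15.9 FPKM in over-expression against 22.8 FPKM in wild type. BGIOSGA001207 on chromosome 1 differed in direction, at 6.82 FPKM in the libraries labelled KD against 10.4 FPKM in wild type, and at 21.8 FPKM in over-expression against 10.8 FPKM in wild type. In the authors' deposited tables its q was 0.0455 in the libraries labelled KD and 0.00105 in over-expression.

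The other called rises of the class in over-expression were BGIOSGA017081, BGIOSGA009824, BGIOSGA017946, BGIOSGA022290, BGIOSGA030366, BGIOSGA017082, BGIOSGA016708, BGIOSGA002910 and BGIOSGA008218, with log2 fold changes of 0.62 to 2.07. The lowest of these, BGIOSGA008218, was at -0.052 after centring. Of these, BGIOSGA016708 was the most abundant, at 34.0 FPKM in over-expression against 19.5 FPKM in wild type. BGIOSGA017081 and BGIOSGA017082 lie side by side on chromosome 4 with starts 9.44 kb apart. BGIOSGA017946 was also listed in the libraries labelled KD, at 2.45 FPKM against 1.43 FPKM in wild type, and was not called there. Uncalled in both comparisons were BGIOSGA002556, BGIOSGA022329 and BGIOSGA033076. Besides BGIOSGA026477, the 12 uncalled members of the class in the libraries labelled KD had log2 fold changes of -1.22 to 1.15, and the 11 in over-expression -0.55 to 1.24.

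Members called higher had lower wild-type levels than members called lower. In over-expression the median wild-type level was 1.63 FPKM over the 33 called higher, and the 2 called lower stood at 302 and 22.8 FPKM in wild type. In the libraries labelled KD it was 1.43 FPKM over the 12 called higher and 12.4 FPKM over the 19 called lower. All listed loci of that table showed the same order, with medians of 2.199 FPKM for those called higher and 12.5 FPKM for those called lower. In over-expression the medians over all listed loci were 3.75 FPKM for those called higher and 12.5 FPKM for those called lower. Rises of at least 4-fold made up 18 of the 33 in over-expression (54.5%), against 21.2% of all loci called higher there. In the libraries labelled KD they made up 6 of the 12 (50.0%), against 23.2% of all loci called higher. In over-expression 33.3% of the members called higher started under 1 FPKM in wild type, against 21.2% of all loci called higher. In the libraries labelled KD that share was 33.3%, near the 29.4% of all loci called higher. The part of wild-type level in these large folds was not tested.

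Of the members, 27 were listed in both tables, 27 in the table of libraries labelled KD alone and 29 in the over-expression table alone, and 10 members were called in both. The tables were normalised separately and share the wild-type libraries. Over the 1714 loci in both, the wild-type FPKM of the over-expression table was 1.04 times that of the other table (1.04 to 1.05), so over-expression levels were divided by that median ratio to set them beside the libraries labelled KD. On this scale the over-expression level exceeded that of the libraries labelled KD for 24 of the 27 members (88.9%), against 73.8% of all loci in both tables. The median ratio of the over-expression level to that of the libraries labelled KD was 1.99 over the members (0.814 to 7.41) and 1.26 over all loci in both tables. The highest ratio was that of the cutin-term locus BGIOSGA026477, and the exceptions were BGIOSGA034684, BGIOSGA011294 and the synthase BGIOSGA033118, at 0.814, 0.976 and 0.994. No test between the transgenic groups was possible from pooled values.

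**Figure D4:**
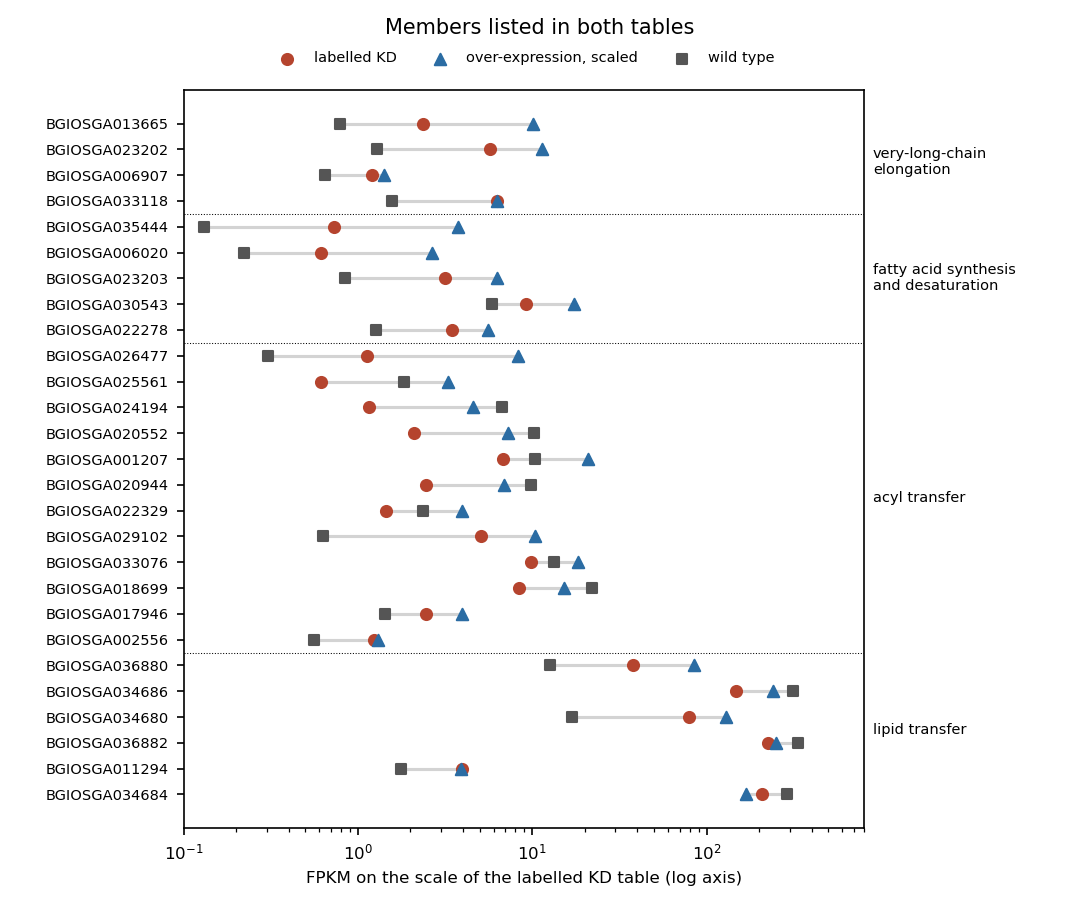
Pooled FPKM (log axis) of the 27 members listed in both tables, grouped by class, for the libraries labelled KD (circles), over-expression scaled by the wild-type ratio of the tables (triangles) and wild type (squares). Triangles lie right of circles for 24 members, and in acyl transfer several circles lie left of the wild-type square.

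Loci of the same pathways outside the members were counted by Gene Ontology term or protein name. Among all listed loci, 17.6% were called higher and 36.7% lower in the libraries labelled KD. In over-expression 37.9% were called higher and 13.6% lower. Fatty acyl-CoA reductases, which make the alcohols of wax and suberin, had 3 loci listed in each comparison, with 2 called higher and 0 lower in the libraries labelled KD and 2 higher and 1 lower in over-expression. BGIOSGA031292 was higher in both, at 9.09 FPKM in the libraries labelled KD against 1.39 FPKM in wild type, and at 12.5 FPKM in over-expression against 1.46 FPKM in wild type. BGIOSGA016181 was the fall, at 27.5 FPKM in over-expression against 44.1 FPKM in wild type. Cutin biosynthesis had 2 loci in each comparison, and both were called higher in both. One of them, BGIOSGA000468, stood at 3.13 FPKM in the libraries labelled KD against 0.791 FPKM in wild type, and at 14.9 FPKM in over-expression against 0.824 FPKM in wild type. Cuticle development had 2 called higher and 1 lower of 3 in the libraries labelled KD, and 1 higher of 2 in over-expression. These groups list at most 3 loci each, and their counts were not tested against other loci.

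Other groups are given beside the same shares of all listed loci, 17.6% higher and 36.7% lower in the libraries labelled KD and 37.9% higher and 13.6% lower in over-expression. For the term of unsaturated fatty acid biosynthesis, 1 of 23 listed loci was called higher and 15 lower (65.2%) in the libraries labelled KD, and 1 of 19 higher and 7 lower (36.8%) in over-expression. Of these loci, 20 of the 23 and 15 of the 19 are annotated to the chloroplast or thylakoid, and they include a thylakoid rhodanese-like protein and a glyceraldehyde-3-phosphate dehydrogenase. They were lower alongside the leaf markers, of which 18 of 21 were called lower in the libraries labelled KD, and the part of leaf tissue in this count was not tested. Lipid catabolism had 0 of 9 called higher and 4 lower (44.4%) in the libraries labelled KD, and 7 of 15 higher (46.7%) and 0 lower in over-expression. The shares of 44.4% and 46.7% are not far from those of all listed loci. Phospholipases by name had 0 of 7 called higher and 3 lower (42.9%) in the libraries labelled KD, and 4 of 6 higher (66.7%) and 0 lower in over-expression. For fatty acid beta-oxidation, 4 of 18 were called higher (22.2%) and 1 lower (5.56%) in the libraries labelled KD, and 2 of 11 higher and 2 lower (18.2% each) in over-expression. Lignin biosynthesis had 0 of 8 called higher and 6 lower (75.0%) in the libraries labelled KD, and 3 of 7 higher (42.9%) and 0 lower in over-expression. Also near the shares of all listed loci were phospholipases called lower in the libraries labelled KD (42.9%) and lignin loci called higher in over-expression (42.9%). So were beta-oxidation loci called higher in the libraries labelled KD (22.2%) and lower in over-expression (18.2%). The counts of these groups were not tested against other loci, and a locus may stand in more than 1 group.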

How the data were processed

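The deposited data were 2 tables of the authors' comparisons, each of a transgenic group with wild type. Per the file headers, the authors gave each locus a single pooled FPKM in each group, and per the submitters' processing notes Cufflinks 2.2.1 and Cuffdiff were used. RNA was extracted with Trizol, per the labels' protocols. The sources used here do not give the aligner, the genome build or the version of Cuffdiff. The deposited log2 fold change equals the log2 ratio of transgenic over wild-type FPKM without a pseudocount (checked by recalculation), and 0 loci were listed at an FPKM of 0. The deposited p-values and q-values are the output of Cuffdiff.

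No test was run here, because the tables hold pooled values. Depth is unknown, so no interval was computed. The number of loci tested was estimated as the number that, times p over q, gave whole ranks for the most p levels. It was 17618 for the libraries labelled KD and 17596 for over-expression, so 24.6% and 24.4% were listed. These numbers gave whole ranks for 89.8% and 91.1% of p levels, and the next best numbers for 45.0% and 47.7%. The method was tested on simulated data. Unassigned columns of single libraries: 0. In the table of libraries labelled KD, 1 locus has 2 rows.

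Members, pathway lists and marker lists were chosen with earlier results of these data known. Named are members in both tables, the 12 largest called rises and 12 largest called falls of each comparison with at least 1 FPKM in the higher group, all synthases and lipid-transfer proteins by name, and the 3 most abundant called members of each class. Further members and pathway loci were named after their values were seen. The RefSeq table of rice genes matched 0 members, and sequences were not used here. Alternatives were a q threshold of 0.01, a minimum of 1 FPKM, a pseudocount of 1 FPKM, centring, leaving out loci with several gene identifiers, keeping chloroplast loci and, chosen after seeing the data, a minimum of 2-fold.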

Additional observations from a re-analysis of the deposited data

How the results depend on the processing

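Of the counts, members called higher stayed within 8 to 14 in the libraries labelled KD (12 as reported) and 25 to 40 in over-expression (33 as reported) under every alternative run. At q under 0.01, members called lower numbered 11 in the libraries labelled KD (19 as reported) and 1 in over-expression (2 as reported). Members called lower in over-expression numbered 5 after centring and 0 with a minimum of 2-fold, an alternative chosen after seeing the data.

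The median log2 fold change of the libraries labelled KD (-0.47 as reported) was -0.40 with a pseudocount, -0.50 with a minimum of 1 FPKM, -0.50 without loci holding several gene identifiers, -0.49 with chloroplast loci kept, and 0.11, of opposite sign, after centring. That of over-expression (1.26 as reported) was 0.82 with a pseudocount, 1.26 with a minimum of 1 FPKM, 1.18 without loci holding several gene identifiers, 1.12 with chloroplast loci kept and 0.59 after centring. Centring subtracts the median of all listed loci, -0.58 in the libraries labelled KD and 0.67 in over-expression, and by that construction reversed BGIOSGA034687 (0.016) and BGIOSGA036882 (0.0029) in the libraries labelled KD and BGIOSGA018867 (-0.13), BGIOSGA007025 (-0.11) and BGIOSGA008218 (-0.052) in over-expression. Another 11 values of members that were not called changed sign, and the other 94 kept their direction. All 110 kept it with the pseudocount.

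Leaving out each replicate was not run, because the tables hold pooled groups. No paired analysis was possible because the tables hold 1 pooled value per group. Folds of loci near 0 FPKM in wild type are uncertain, and their depth is unknown.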

Other observations

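Loci with the same terms that are annotated to the chloroplast or thylakoid were left out of the members. Of 9 such loci listed in the libraries labelled KD, 1 was called higher (11.1%) and 5 lower (55.6%), beside 17.6% and 36.7% of all listed loci. Of 13 listed in over-expression, 7 were called higher (53.8%) and 1 lower (7.69%), beside 37.9% and 13.6% of all listed loci. Of the 83 members, 21 lay in 8 groups of neighbours separated by at most 100 kb. Besides the lipid-transfer arrays, chromosome 6 holds 3 of these groups, and one of them places the thioesterase BGIOSGA023195, not called in over-expression, in 1 stretch of 90.7 kb with BGIOSGA020944, which fell in the libraries labelled KD.

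Of the pathway loci outside the members, BGIOSGA002266, with a cuticle development term, stood at 9.62 FPKM in over-expression against 0.891 FPKM in wild type, and at 1.73 FPKM in the libraries labelled KD against 0.853 FPKM in wild type. BGIOSGA004822, with a suberin term, stood at 3.88 FPKM in over-expression against 0.521 FPKM in wild type. BGIOSGA029184, a fatty acyl-CoA reductase, stood at 3.29 FPKM in over-expression against 0.340 FPKM in wild type, and BGIOSGA016179, another, at 19.2 FPKM in the libraries labelled KD against 11.8 FPKM in wild type.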
